A study of Mus musculus with 8 samples.

Results

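The Notch pathway genes described here were 32 genes fixed by name, all 32 of which were present among the 55421 gene identifiers of the deposited table. They comprised 4 receptors, 5 ligands, 3 fringe glycosyltransferases and 9 targets or relatives of targets. The others were 4 genes of the nuclear complex, 3 proteases or protease subunits and 4 regulators of endocytosis and turnover. Bulk poly-A RNA-seq covered the vagal region of mouse embryos at stage E9.5, dissected at the level of somites 1 to 7. The 8 libraries were 4 of Rdh10(trex/trex) mutants, called trex, and 4 of wt, and the series compares expression between them. Retinoic acid synthesis runs through retinaldehyde, and Rdh10 is the enzyme that supplies it from retinol in the embryo. Strain, litter and the number of embryos per sample are not in the labels, so a p-value reflects how these samples spread, part of which may be technical.

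Notch receptors are membrane proteins that are activated by Delta and Jagged ligands on neighbouring cells. Binding exposes the receptor to cleavage by Adam10 or Adam17 and then by gamma-secretase. The freed intracellular domain enters the nucleus, binds Rbpj and a Mastermind protein and switches on Nrarp and several Hes and Hey genes. In the embryonic neural tube the pathway keeps neighbouring progenitors from becoming neurons at the same time, in the presomitic mesoderm it drives the segmentation clock, and in vessels it separates arterial from venous and sprouting cells.

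Depth recovered from the values ran from 20928981 to 23648646 reads per library. Sox10, a marker of migrating neural crest, lay between 39.5 and 66.4 TPM in trex, against 34.3 to 37.2 TPM in wt (limma, adjusted p = 0.0732). Hoxb5, a Hox gene of the vagal level, was detected throughout but fell in trex, with 20.2 to 25.9 TPM, against 33.6 to 40.8 TPM in wt (adjusted p = 0.00852). Rdh10 itself held 106, 66.2, 62.7 and 69.0 TPM in trex and 41.0, 36.3, 40.3 and 37.6 TPM in wt (limma, adjusted p = 0.0126); the lesion of the allele is not in the labels, so its transcript level does not check them. The highest correlation with a wt library was 0.949 for trex replicate 1 and 0.975 to 0.981 for the other trex libraries, while the lowest correlation within the group was alike in all 4, at 0.964 to 0.966. Y-linked transcripts were abundant in wt replicate 2 (162 TPM in sum) and wt replicate 3 (158 TPM), while each of the remaining 6 libraries, all 4 of trex among them, held no more than 0.0662 TPM.

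Values are TPM, a transcript abundance scaled to a fixed total per library and by gene length, so that levels can be compared between genes. Group values are means ± SD over 4 libraries each. Differences between genotypes are in log2(TPM + 1), trex minus wt, ± SE, on a scale that understates the change of weakly expressed genes. Their adjusted p-values are from limma over all 15717 genes with a mean of at least 1 TPM. Genes with an adjusted p below 0.05 are called. Of the 32 genes 31 passed this filter, and Hes7, at a mean of 0.987 TPM, did not. Of these 31, 6 were called, which is 19.4% against 8.71% of all tested genes. The members were chosen with earlier results of these data known, so their shares are given as a description. The 2 called higher in trex, Hes1 and Maml2, made up 6.45% of the members, close to the 4.94% of all tested genes called higher. The 4 called lower, Lfng, Mfng, Hes6 and Nrarp, made up 12.9%, against 3.77% of all tested genes. The libraries of both groups did not overlap for 14 of the 31 genes, or 45.2% against 21.8% of all tested genes. Trex lay above wt for 7 of them, against 12.9% of all tested genes, and below for 7, against 8.95%. The median difference over the 31 genes was 0.03, beside 0.04 over all tested genes, with 17 genes above zero and 14 below.

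**Figure D1:**
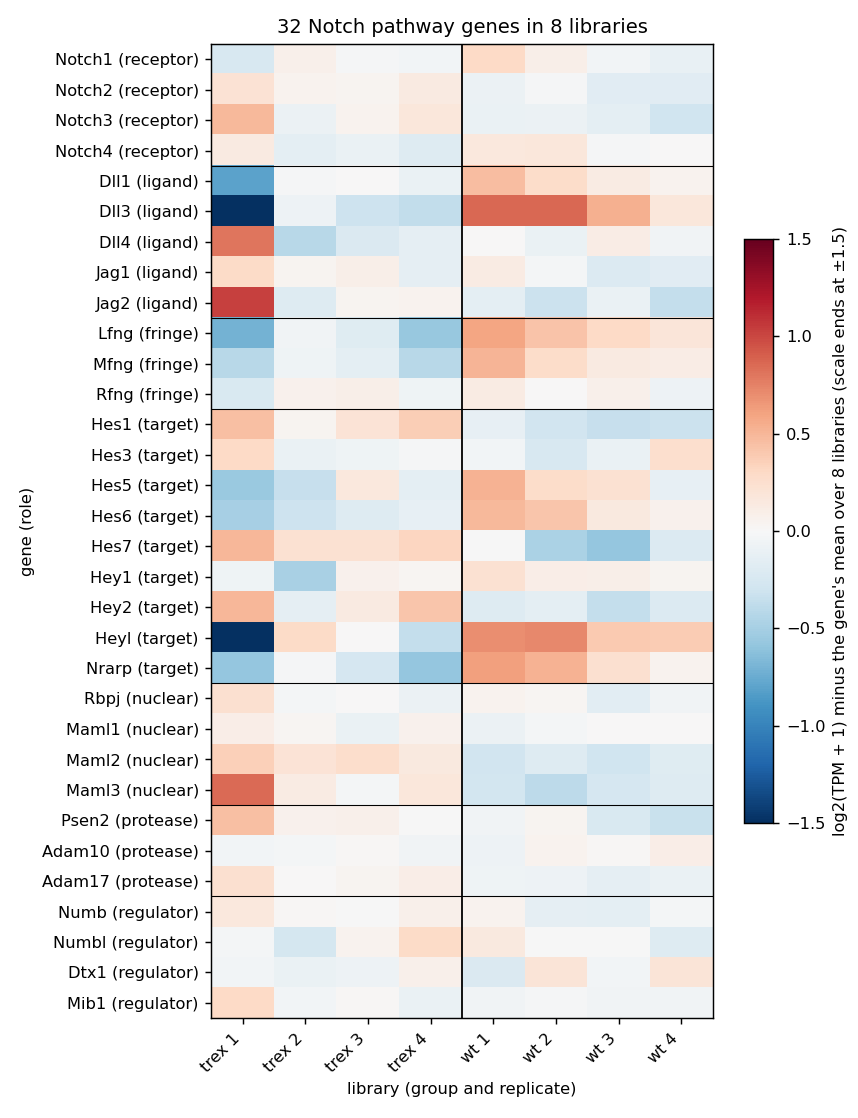
Log2(TPM + 1) of each of the 32 genes (rows, grouped by role) in each library (columns, trex left of wt), as the distance from the gene's mean over 8 libraries, with the colour scale ending at 1.5 in either direction. Lfng, Mfng, Hes6 and Nrarp were lower in all 4 trex libraries and Hes1 and Maml2 higher, and trex replicate 1 held the lowest values of Dll1, Dll3 and Heyl.

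**Figure D2:**
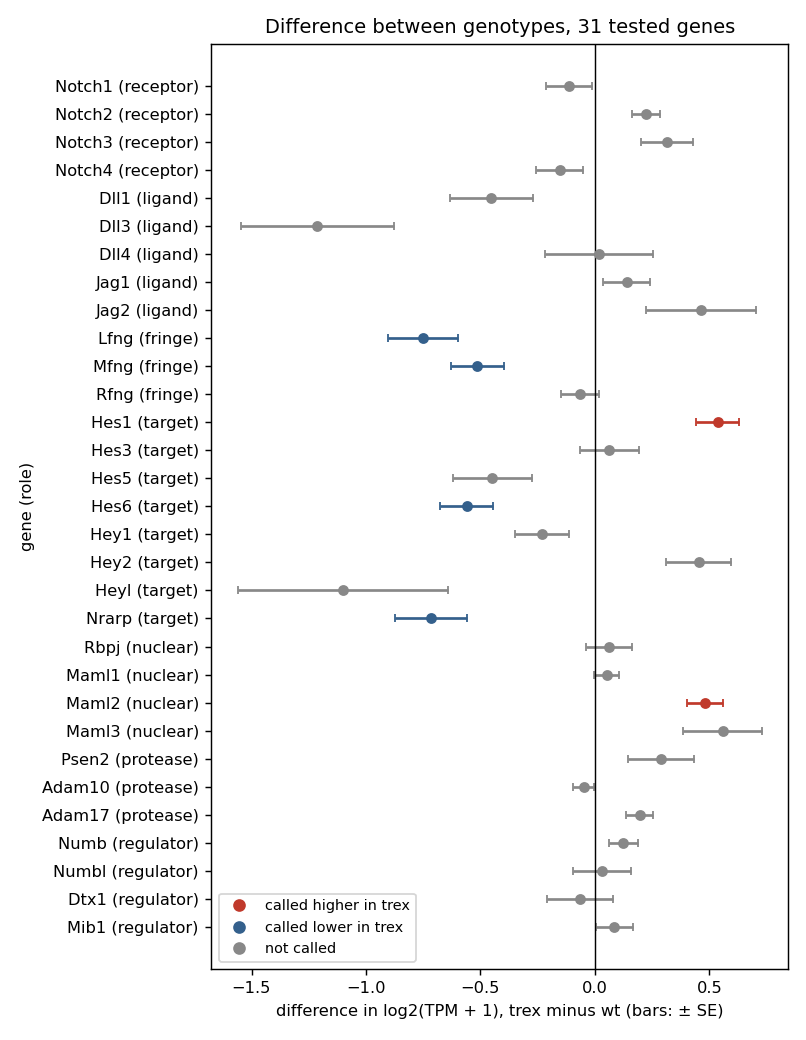
Difference in log2(TPM + 1) between trex and wt for the 31 tested genes, with SE bars. Genes called higher in trex (Hes1 and Maml2) are red, genes called lower (Lfng, Mfng, Hes6 and Nrarp) blue, and the 25 others grey.

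The receptors differed little between the genotypes, and none of the 4 was called by limma, although Notch2 and Notch3 had an unadjusted p below 0.05. In both groups the order of their levels was the same, with Notch3 highest, Notch1 and Notch2 next and Notch4 lowest. Notch3, a receptor best known from vascular mural cells and also made in neural progenitors, held 120.3, 80.8, 88.6 and 96.7 TPM in trex and 79.9, 80.3, 77.5 and 69.5 TPM in wt. All 4 trex libraries lay above wt, but trex replicate 2 did so by under 1 TPM, and the difference of 0.31 ± 0.11 was not called (adjusted p = 0.114). Notch2 held 39.3, 34.8, 34.7 and 36.8 TPM in trex and 31.5, 33.0, 29.8 and 29.7 TPM in wt. Its groups did not overlap either, with a difference of 0.22 ± 0.06 and an adjusted p of 0.0602. Without trex replicate 2, Notch2 and Notch3 were called higher (adjusted p = 0.0400 and 0.0392). That fit called 2911 genes of the whole table, against 1369 with all 8 libraries. Without any 1 of the 7 other libraries neither gene was called (adjusted p up to 0.155 and 0.235).

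Notch1, the main receptor of the neural tube and presomitic mesoderm, held 32.6, 40.7, 38.2 and 37.6 TPM in trex and 47.8, 41.3, 37.5 and 35.6 TPM in wt. These ranges overlapped, with a difference of -0.11 ± 0.10 (adjusted p = 0.474). Notch1 averaged 37.3 ± 3.38 TPM in trex, within the spread of Notch2 there (36.4 ± 2.17 TPM), and 40.6 ± 5.37 TPM in wt. Notch4, which is largely endothelial, held 9.05, 7.29, 7.53 and 7.04 TPM in trex and 9.20, 9.30, 8.03 and 8.24 TPM in wt. The groups overlapped through trex replicate 1, and the difference was -0.15 ± 0.10 (adjusted p = 0.339).

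Among the ligands the Delta-like genes Dll1 and Dll3 were lower in every trex library than in any wt library, while the Jagged genes overlapped, and none of the 5 ligands was called by limma. Of the 5, 2 had an unadjusted p below 0.05, beside 4561 of all 15717 tested genes. Dll1, the ligand of nascent neurons and of presomitic mesoderm, held 27.9, 48.7, 49.6 and 46.0 TPM in trex and 68.1, 59.8, 53.8 and 51.0 TPM in wt. Trex replicates 2 to 4 came close to the lowest wt library, and the difference was -0.45 ± 0.18 (adjusted p = 0.139). Dll3, a divergent ligand that acts within the cell that makes it, held 3.22, 11.7, 9.79 and 9.32 TPM in trex and 23.2, 23.4, 18.4 and 14.0 TPM in wt. It had the largest difference of the 31 genes in absolute size, -1.21 ± 0.33 or 2.32-fold lower in trex by means, and its adjusted p of 0.0569 missed the threshold. Without trex replicate 1 the difference was smaller, -0.86, and the adjusted p was 0.0249. Without trex replicate 2 the adjusted p was 0.0316. Without any 1 of the 6 other libraries Dll3 was not called (adjusted p up to 0.158).

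Dll4, the ligand of endothelial tip and arterial cells, held 21.0 TPM in trex replicate 1 and 8.44, 9.89 and 10.5 TPM in the other trex libraries, against 11.7, 10.8, 12.6 and 11.1 TPM in wt. The high value of trex replicate 1 set the sign of the difference, which was 0.02 ± 0.24 (adjusted p = 0.968) with that library and -0.25 without it. Jag2 had the same shape, with 26.9 TPM in trex replicate 1 and 10.9, 13.0 and 13.2 TPM in the others, against 11.4, 9.90, 11.7 and 9.66 TPM in wt. Its difference was 0.46 ± 0.24 (adjusted p = 0.232), and 0.20 without trex replicate 1. Jag1, a ligand of many epithelia and vessels, held 52.8, 44.5, 46.2 and 39.2 TPM in trex and 47.1, 42.4, 37.5 and 38.4 TPM in wt, overlapping, with an adjusted p of 0.387. In wt, Dll1 was the most abundant ligand by mean, at 58.2 ± 7.57 TPM, ahead of Jag1. In trex, Dll1 stood at 43.1 ± 10.2 TPM and did not differ from Jag1 beyond the spread.

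The fringe genes encode glycosyltransferases that add N-acetylglucosamine to fucose on Notch and so alter which ligands activate it, and 2 of the 3 fell in trex. Lfng (ENSMUSG00000029570, chromosome 5, 140607320 to 140615545, mm10) held 39.9, 63.3, 58.0 and 44.0 TPM in trex and 99.3, 88.6, 81.0 and 74.9 TPM in wt. The highest trex library lay below the lowest wt library. The mean was 1.68-fold lower in trex, at 51.3 ± 11.1 TPM against 86.0 ± 10.5 TPM in wt, with a difference of -0.75 ± 0.15 (limma, adjusted p = 0.0239). Mfng (chromosome 15, 78755882 to 78773475) held 24.2, 31.1, 29.4 and 24.2 TPM in trex and 46.8, 39.4, 35.7 and 35.2 TPM in wt. It was 1.44-fold lower in trex, again without overlap, with a difference of -0.51 ± 0.12 (adjusted p = 0.0335). Rfng, the remaining fringe gene, averaged 31.4 ± 3.18 TPM in trex, against 32.8 ± 2.00 TPM in wt (adjusted p = 0.614). In wt Lfng was the most abundant fringe gene in each library. In trex it also exceeded Rfng in each library, by a smaller factor.

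The genes grouped as targets, with Hes6 among them only as a Hes relative, split. Hes1 rose in trex, Hes6 and Nrarp fell, and the other 5 tested genes of the group were not called. Hes1 (chromosome 16, 30064384 to 30067796), a bHLH repressor that holds progenitors undifferentiated and is made in mesenchyme as well as in neural tissue, held 110.4, 82.8, 92.6 and 104 TPM in trex and 73.8, 65.6, 63.2 and 64.3 TPM in wt. Every trex library lay above every wt library. The mean was 1.46-fold higher, at 97.6 ± 12.3 TPM in trex, against 66.7 ± 4.83 TPM in wt, with a difference of 0.54 ± 0.09 (adjusted p = 0.0151). Hes5, the bHLH repressor of neural progenitors, held 81.3, 94.3, 134 and 108 TPM in trex and 172, 146, 141 and 110.0 TPM in wt. Trex replicate 3 lay within the wt range, and the difference of -0.45 ± 0.17 was not called (adjusted p = 0.127). Hes5 was the more abundant of the pair in all 4 wt libraries and in trex replicates 2 to 4, and Hes1 in trex replicate 1.

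Nrarp (chromosome 2, 25180758 to 25183339), an ankyrin-repeat protein that is induced by Notch and in turn limits it, held 72.0, 107, 91.0 and 72.3 TPM in trex and 167, 156, 128 and 112 TPM in wt. The highest trex library, replicate 2, lay just below the lowest wt library, and an antisense gene overlaps the locus. Nrarp was 1.65-fold lower in trex, with a difference of -0.72 ± 0.16 (adjusted p = 0.0321). Hes6 (chromosome 1, 91411483 to 91414038), a relative that is made in cells entering neuronal differentiation and that opposes Hes1, held 57.0, 65.1, 70.5 and 74.3 TPM in trex and 114, 108, 89.8 and 84.5 TPM in wt. It was 1.49-fold lower in trex, without overlap, with a difference of -0.56 ± 0.11 (adjusted p = 0.0248).

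Heyl, a Hey family repressor, varied most among the mutants. It held 2.98, 20.3, 16.5 and 12.7 TPM in trex and 27.4, 27.8, 21.9 and 21.8 TPM in wt. All trex libraries lay below wt, but the distance ranged from slight in trex replicate 2 to very large in trex replicate 1. The difference was -1.10 ± 0.46 (adjusted p = 0.154), and -0.57 without trex replicate 1. Hey2, an arterial and cardiac repressor, held 16.5, 10.3, 12.6 and 15.6 TPM in trex and 9.86, 10.3, 8.69 and 9.78 TPM in wt. Trex replicate 2 lay barely above the highest wt library, and the difference of 0.45 ± 0.14 was not called (adjusted p = 0.0804), but was without trex replicate 2 (adjusted p = 0.0147). Without any 1 of the 7 other libraries Hey2 was not called (adjusted p up to 0.187). Hey1 averaged 50.4 ± 8.42 TPM in trex, against 58.7 ± 3.40 TPM in wt (adjusted p = 0.228), and Hes3, a repressor of the midbrain-hindbrain region, 13.3 ± 1.93 TPM in trex, against 12.7 ± 2.01 TPM in wt (adjusted p = 0.772).

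Hes7, the repressor that oscillates in presomitic mesoderm as part of the segmentation clock, was the weakest of the 32 genes. It held 1.72, 1.25, 1.25 and 1.41 TPM in trex, on 18, 13, 12 and 15 recovered reads. In wt it held 0.916, 0.390, 0.284 and 0.666 TPM, on 9, 4, 3 and 7 reads. The mutant libraries all lay above wt, with a mean 2.50-fold higher, but the gene failed the filter on low values. Without that filter its difference was 0.64 ± 0.16 with an adjusted p of 0.0827 in limma. Other genes of presomitic mesoderm and somite formation summed to 828, 757, 656 and 668 TPM in trex and 515, 539, 605 and 591 TPM in wt over a list of 14. Aldh1a2 alone averaged 318 ± 41.0 TPM in trex, against 216 ± 41.8 TPM in wt, so it weighed heavily in the sum. The filter removed 5 of the 14 genes, Mesp2 among them. Of the 9 tested, 2 were called higher and none lower. The call of Ripply1 (adjusted p = 0.0476, on 8 to 22 reads) was ended by leaving out any of the 8 libraries and that of Aldh1a2 (adjusted p = 0.0436) by any of 7, while Mesp2, a defining gene of the forming somite boundary, stood at no more than 0.708 TPM in any library. Trunk and caudal Hox genes, 10 in the list, summed to 569, 612, 466 and 605 TPM in trex and 125, 94.3, 225 and 228 TPM in wt. Of 9 tested Hox genes 6 were called higher and none lower. The part of either list in the level of Hes7 was not tested.

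**Figure D3:**
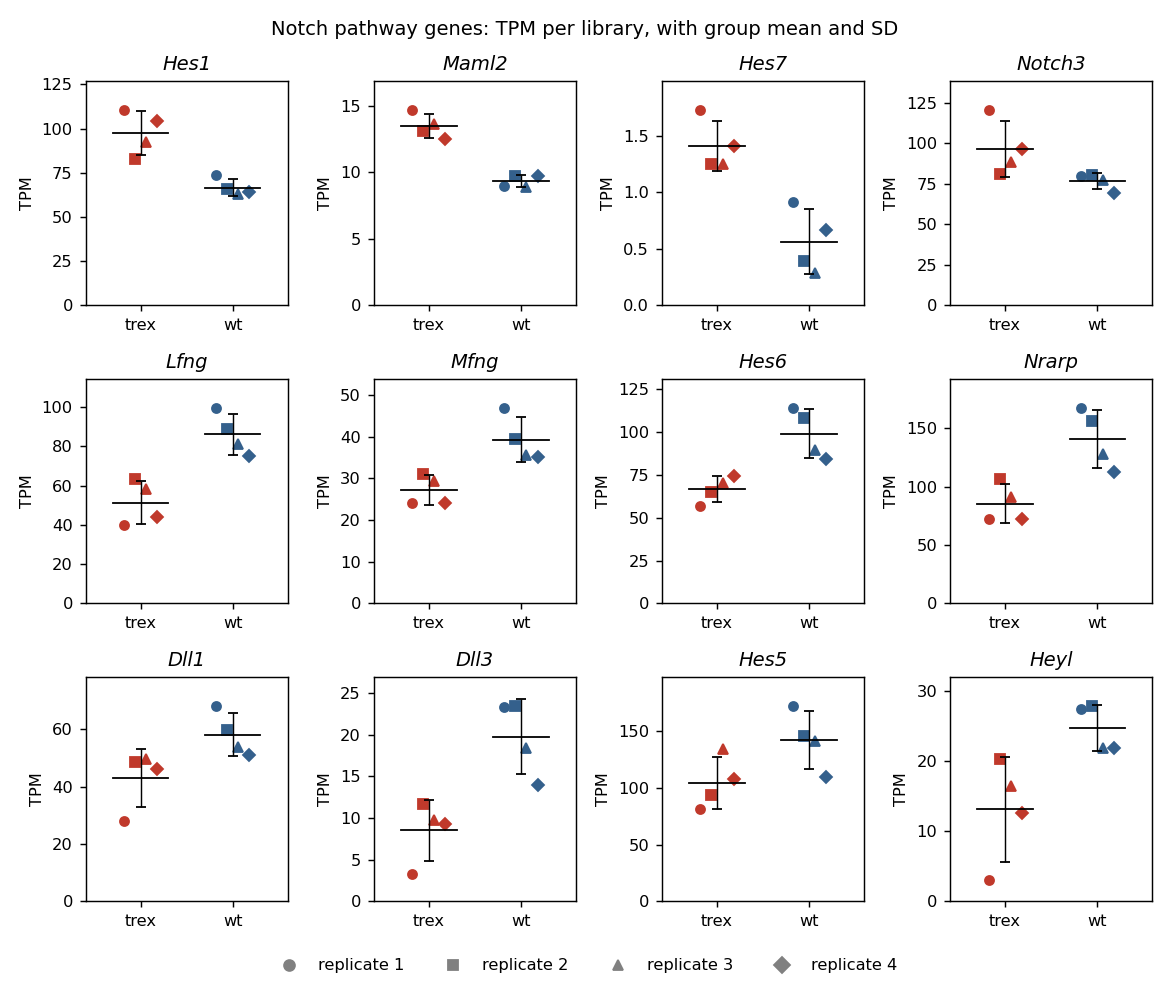
TPM of 12 genes in each library, trex left of wt, with the group mean and SD over 4 libraries and symbols for the replicates. Hes1, Maml2 and Hes7 lay higher in all trex libraries, Lfng, Mfng, Hes6, Nrarp, Dll1, Dll3 and Heyl lower, and Hes5 overlapped.

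Promoter windows are shown for Lfng and Nrarp, targets of the pathway that fell, for Hes5, which was not called, and for Hes7, which was not tested, so that the Rbpj recognition core can be compared between them. Each window runs from 250 bases before to 50 bases after the start site, 5′ to 3′ on the gene's strand, from RefSeq on GRCm38.p6, the assembly that mm10 also names. Capitals mark GTGGGAA or its reverse complement TTCCCAC, the only motif searched in these windows.
Lfng (chr5:140607091-140607390, plus strand): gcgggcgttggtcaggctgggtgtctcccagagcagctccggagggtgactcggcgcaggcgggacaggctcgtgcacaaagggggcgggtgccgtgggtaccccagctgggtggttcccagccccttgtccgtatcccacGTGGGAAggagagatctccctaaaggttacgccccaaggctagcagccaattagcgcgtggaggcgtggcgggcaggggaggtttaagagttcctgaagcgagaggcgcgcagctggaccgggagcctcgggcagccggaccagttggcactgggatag
Nrarp (chr2:25180508-25180807, plus strand): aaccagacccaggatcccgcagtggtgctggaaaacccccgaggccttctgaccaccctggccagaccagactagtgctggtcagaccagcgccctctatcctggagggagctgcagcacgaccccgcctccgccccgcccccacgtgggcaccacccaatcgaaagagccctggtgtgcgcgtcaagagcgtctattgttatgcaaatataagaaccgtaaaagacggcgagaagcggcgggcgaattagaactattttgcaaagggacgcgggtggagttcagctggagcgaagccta
Hes5 (chr4:154960673-154960972, plus strand): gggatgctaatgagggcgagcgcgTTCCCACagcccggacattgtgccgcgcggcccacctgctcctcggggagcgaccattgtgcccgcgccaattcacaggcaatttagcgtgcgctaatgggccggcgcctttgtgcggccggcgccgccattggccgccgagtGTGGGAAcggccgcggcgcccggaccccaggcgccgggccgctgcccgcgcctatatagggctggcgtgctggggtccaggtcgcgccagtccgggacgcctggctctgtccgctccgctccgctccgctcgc
Hes7 (chr11:69120203-69120502, plus strand): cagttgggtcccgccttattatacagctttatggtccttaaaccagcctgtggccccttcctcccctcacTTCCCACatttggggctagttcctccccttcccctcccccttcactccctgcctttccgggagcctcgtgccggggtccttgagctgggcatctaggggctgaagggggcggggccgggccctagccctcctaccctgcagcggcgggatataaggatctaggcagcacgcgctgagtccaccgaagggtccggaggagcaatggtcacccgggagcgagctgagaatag
Hes5 held the core at 2 places, starting 226 and 83 bases before the start site, the first on the opposite strand. Lfng held it 109 bases before the start and Hes7 180 bases before it, on the opposite strand. The window of Nrarp held none. A window was available for 26 of the 32 genes, and not for Hes1, Hes3, Hey1, Heyl, Mfng and Mib1. The called genes Hes1 and Mfng were therefore not searched. The core was found in 5 of the 33 windows, 1 each of Hes5, Hes7, Lfng, Hey2 and Psen2. Among all 32851 mouse promoter windows 6.38% held it. Of the 5 genes with the core, Lfng was the one called between genotypes. A match describes these letters only.

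In the nuclear complex, Maml2 rose and the DNA-binding partner Rbpj was not called. The Mastermind genes encode co-activators that bind the Notch intracellular domain on Rbpj. Maml2 (chromosome 9, 13297957 to 13709388) held 14.7, 13.1, 13.7 and 12.5 TPM in trex and 9.01, 9.73, 8.93 and 9.75 TPM in wt. The libraries of each group lay close together and apart from the other group. Maml2 was 1.44-fold higher in trex, with a difference of 0.48 ± 0.08 (adjusted p = 0.0126), the smallest adjusted p of the 31 genes. Maml3 held 35.5, 21.0, 18.9 and 21.8 TPM in trex and 15.7, 14.4, 16.0 and 16.8 TPM in wt. All trex libraries lay above wt, with trex replicate 1 highest, and the difference of 0.56 ± 0.17 was not called (adjusted p = 0.0801), but was without trex replicate 1 (0.37, adjusted p = 0.0237). Without any 1 of the 7 other libraries Maml3 was not called (adjusted p up to 0.193). Maml1, the most abundant of the 3, averaged 76.5 ± 4.51 TPM in trex, against 73.7 ± 2.08 TPM in wt (adjusted p = 0.544).

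Rbpj averaged 9.06 ± 1.03 TPM in trex, against 8.62 ± 0.647 TPM in wt (adjusted p = 0.705). Its level is uncertain, since the processed pseudogene Rbpj-ps3 was listed at 21.2 ± 2.08 TPM in trex, against 19.5 ± 1.21 TPM in wt, above the gene itself, and reads of near-identical copies can be divided between them in counting.

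The proteases, endocytic regulators and ubiquitin ligases were not called. Of these 7 genes 1, Adam17, had an unadjusted p below 0.05 in limma, beside 4561 of all 15717 tested genes. Adam17 held 70.2, 59.5, 61.0 and 63.5 TPM in trex and 56.6, 55.9, 53.7 and 55.1 TPM in wt. The groups did not overlap, and the difference was 0.19 ± 0.06 (adjusted p = 0.0723). Adam17 overlaps Iah1 on the opposite strand, and the strand setting of the counting is not given in the sources used here. Adam10, the main protease of ligand-activated Notch, was the most abundant of the 32 genes by mean. It averaged 158 ± 3.33 TPM in trex, against 164 ± 8.54 TPM in wt (adjusted p = 0.508). Psen2, a gamma-secretase subunit, averaged 4.54 ± 0.851 TPM in trex, against 3.52 ± 0.527 TPM in wt (adjusted p = 0.219). Mib1, the ubiquitin ligase that lets ligands be endocytosed and so become active, averaged 106 ± 13.5 TPM in trex, against 99.4 ± 1.38 TPM in wt (adjusted p = 0.498). Numb and Numbl, which divert Notch to degradation, stood at 53.3 ± 2.87 and 12.5 ± 2.13 TPM in trex and at 48.9 ± 3.30 and 12.1 ± 1.26 TPM in wt. Dtx1, a cytoplasmic Notch-binding ligase, differed by -0.07 ± 0.14 (adjusted p = 0.782) at a level near the filter.

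A further 50 genes that bear on the pathway, outside the 32, were counted beside them. Of these 46 were tested, 4 were called higher and 3 lower, which is 15.2% against 8.71% of all tested genes. This list too was chosen with earlier results of these data known. The largest difference among the called ones was that of Dtx4, a Deltex family ligase, with 64.5, 86.9, 73.3 and 63.1 TPM in trex and 192, 195, 157 and 148 TPM in wt. Dtx4 was 2.41-fold lower in trex without overlap, with a difference of -1.26 ± 0.12 (adjusted p = 0.00248), and remained called without any single library (adjusted p up to 0.0155). Dner, a Delta-like protein of neurons, was 2.42-fold lower with 0.498 to 0.725 TPM in trex, against 1.15 to 1.99 TPM in wt (adjusted p = 0.0492). Dner, on 14 to 54 recovered reads, passed the filter through wt alone, since every trex library lay below 1 TPM. The Groucho-type co-repressor Tle1 was 1.37-fold lower (adjusted p = 0.0198). Higher in trex were Neurl1a, a ligand-directed ubiquitin ligase (1.47-fold, adjusted p = 0.0328), Gxylt1, which adds xylose to Notch (1.19-fold, 0.0319), and the bHLH antagonists Id1 and Id2 (1.25-fold and 1.35-fold, 0.0452 and 0.0266). The calls of the 6 other than Dtx4 were each ended by leaving out any of 5 to 7 single libraries. Of 4 tested gamma-secretase genes in this set none was called, and none had an unadjusted p below 0.05 in limma.

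Ratios of genes within a library do not depend on how libraries are scaled. The 6 pairs were chosen after the values had been seen, so their ratios are given as a description. Jag1 to Dll1 was 1.89, 0.913, 0.932 and 0.852 in trex and 0.692, 0.709, 0.697 and 0.753 in wt. Jag2 to Dll3 was 8.35, 0.933, 1.33 and 1.41 in trex and 0.489, 0.423, 0.638 and 0.690 in wt. In both pairs the Jagged gene stood higher relative to the Delta-like gene in all trex libraries, most of all in trex replicate 1. Hes1 to Hes5 was 1.36, 0.878, 0.689 and 0.964 in trex and 0.428, 0.450, 0.447 and 0.585 in wt. Lfng to Rfng was 1.47, 1.89, 1.70 and 1.44 in trex and 2.84, 2.76, 2.39 and 2.46 in wt. Maml2 to Maml1 lay between 0.160 and 0.195 in trex and between 0.119 and 0.132 in wt. For these 5 pairs the groups did not overlap. Notch3 to Notch1 was 3.69, 1.98, 2.32 and 2.57 in trex and 1.67, 1.94, 2.07 and 1.95 in wt, where trex replicate 2 lay within the wt range.

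**Figure D4:**
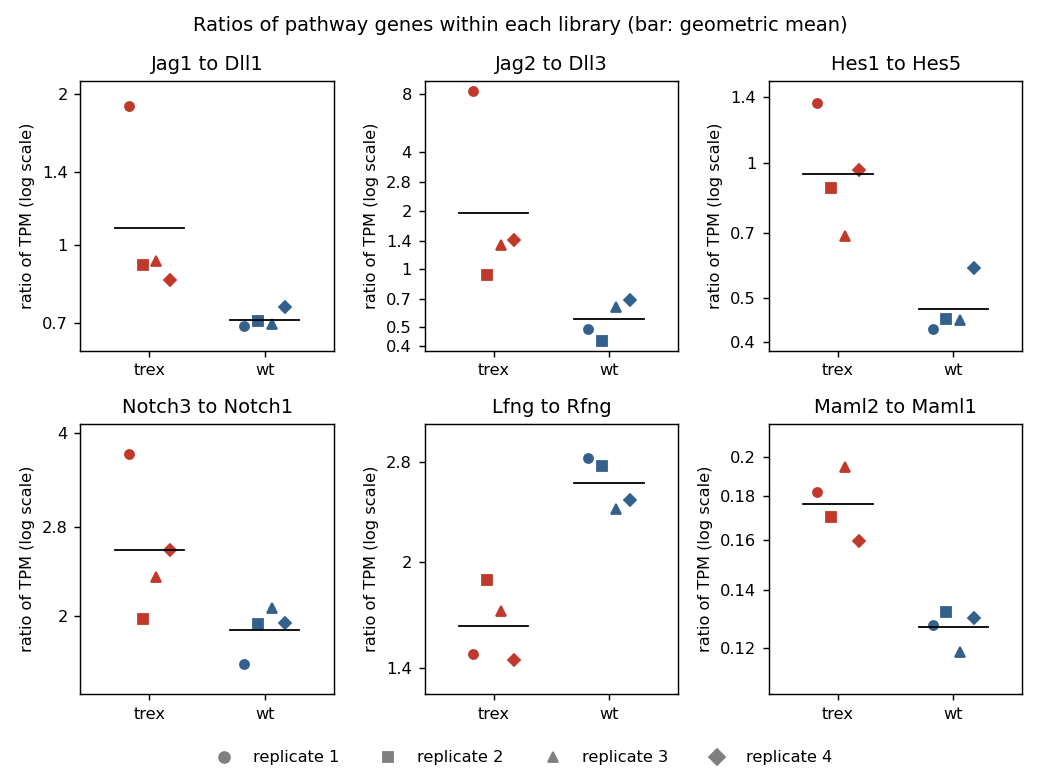
Ratio of the TPM of a pair of pathway genes within each library, on a log axis, trex left of wt, with bars at the geometric mean of 4 libraries. Groups did not overlap for any pair except Notch3 to Notch1.

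Markers of neural tissue were lower in trex, as were Lfng, Mfng, Hes6 and Nrarp. Of 14 neuron markers 12 were called lower and none higher. Of 9 tested proneural factors 5 were lower and none higher, and of 12 neural progenitor markers 5 were lower and none higher. The proneural factor Ptf1a, 1 of those called, passed the filter through wt alone (means of 0.0853 TPM in trex and 2.20 TPM in wt). The neuron markers summed to 240.0, 381, 389.6 and 322 TPM in trex and 980.4, 962, 657 and 615 TPM in wt, and no neuron marker was at 0 in all libraries. The progenitor markers summed to 630.2, 797, 686 and 586 TPM in trex and 1087, 1015, 915 and 906 TPM in wt. In bulk tissue, fewer cells of a type and less RNA per cell cannot be told apart. Within wt the neuron sum was highest in replicate 1 and lowest in replicate 4, and so were Lfng, Mfng, Hes6 and Nrarp. The same held beyond these genes, since of all 32 members 16 were highest in wt replicate 1 and 16 lowest in wt replicate 4. Within trex the order differed. The neuron sum was highest in trex replicate 3, but Lfng, Mfng and Nrarp were highest in replicate 2 and Hes6 in replicate 4. The neuron sum, Lfng, Hes6 and Nrarp were lowest in trex replicate 1, and Mfng in replicate 4.

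Each gene was then set against the progenitor sum of its own library. The 4 genes called lower overlapped between the genotypes on this scale, as did Dll1, Dll3, Hes5 and Heyl, which were not called. Hes1 could not overlap, since in every trex library its TPM lay above wt and the sum lay below wt. Mfng came to 3.84%, 3.90%, 4.28% and 4.13% of that sum in trex and 4.30%, 3.88%, 3.90% and 3.89% in wt. Hes6 lay between 8.16% and 12.7% in trex, against 9.33% to 10.7% in wt, and Dll1 between 4.43% and 7.85% in trex, against 5.63% to 6.26% in wt. Hes5 lay between 11.8% and 19.6% in trex, against 12.1% to 15.8% in wt. For these 4 genes the trex range enclosed or nearly enclosed the wt range. Lfng came to 6.34%, 7.94%, 8.46% and 7.51% in trex and 9.14%, 8.73%, 8.86% and 8.28% in wt, and overlapped through 1 library of each group. Nrarp lay between 11.4% and 13.4% in trex, against 12.4% to 15.4% in wt, Dll3 between 0.512% and 1.59% in trex, against 1.55% to 2.30% in wt, and Heyl between 0.473% and 2.54% in trex, against 2.40% to 2.74% in wt. Nrarp overlapped through wt replicate 4 alone, and Dll3 through replicate 4 of each group alone. Hes1 came to 17.5%, 10.4%, 13.5% and 17.8% in trex and 6.79%, 6.47%, 6.90% and 7.10% in wt, without overlap. Since 5 of the 12 progenitor markers were themselves called lower, the sum is a yardstick of these libraries and not of cell number, and its part in the results was not tested.

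**Figure D5:**
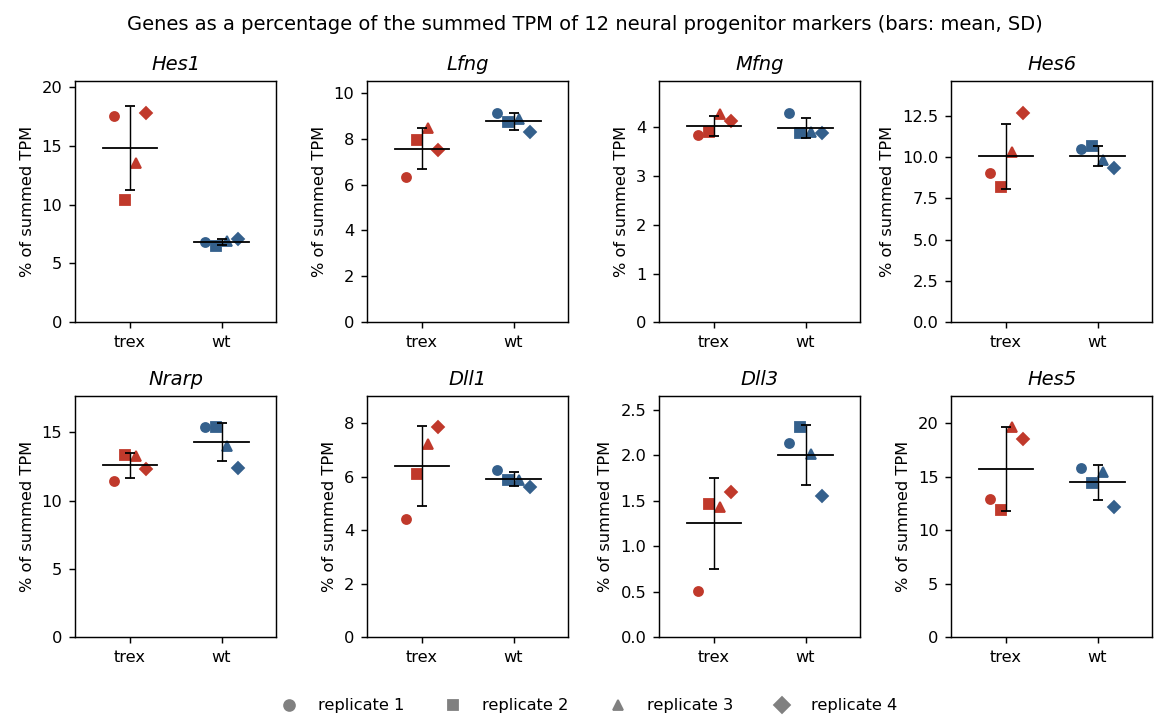
TPM of 8 pathway genes as a percentage of the summed TPM of 12 neural progenitor markers in the same library, trex left of wt, with mean and SD over 4 libraries. Hes1 could not overlap between the groups, as its TPM was higher and the sum lower in all trex libraries. The other 7 genes overlapped.

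Of 14 endothelial markers 2 were called higher and 1 lower, 13 had a positive difference, and their sum lay between 512 and 645 TPM in trex and between 451 and 490.4 TPM in wt. Gja4, an arterial gap junction gene, was the one called lower, at 19.6 ± 2.55 TPM in trex, against 29.7 ± 1.58 TPM in wt (adjusted p = 0.0129), and Cdh5, VE-cadherin, was among the higher, at 109 ± 5.62 TPM in trex, against 84.7 ± 5.32 TPM in wt (adjusted p = 0.0126). Neural crest markers summed to between 568 and 700.1 TPM in trex and between 479 and 487 TPM in wt, with 2 of 8 called higher, Twist1 and Snai2. Sums of cardiomyocyte, liver bud and primitive erythroid markers overlapped between the groups but varied widely within each. The cardiomyocyte sum was 236, 271, 2316 and 2786 TPM in trex and 340, 1357, 713 and 2871 TPM in wt. The liver bud sum lay between 10.8 and 500 TPM in trex, against 8.73 to 198 TPM in wt. The erythroid sum lay between 3081 and 15914 TPM in trex, against 7185 to 16146 TPM in wt. No gene of these lists was called by limma or had an unadjusted p below 0.05. The part of this spread in the levels of the members was not tested.

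The 6 calls depended on single libraries. Leaving out wt replicate 2 ended all 6, with adjusted p between 0.0520 for Maml2 and 0.106 for Nrarp. In that fit 12 of the 31 genes had an unadjusted p below 0.05, beside 3324 of all 15717 tested genes. Leaving out wt replicate 3 ended 5 of the 6 (not that of Maml2), wt replicate 1 or trex replicate 4 ended 4, trex replicate 3 ended 3 and wt replicate 4 ended that of Mfng, while leaving out trex replicate 1 or 2 ended none. With sex as a covariate, read from the Y-linked transcripts, limma called none of the 31 genes (adjusted p between 0.117 and 0.183 for the 6). Of the 31, 10 had an unadjusted p below 0.05, beside 2647 of all 15717 tested genes. The differences of the 6 changed little, with Hes1 at 0.49, Maml2 at 0.48, Lfng at -0.76, Mfng at -0.57, Hes6 at -0.56 and Nrarp at -0.69. Among the 6 libraries low in Y-linked transcripts none was called either, with 8 at an unadjusted p below 0.05, beside 2116 of all 15717 tested genes.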

How the data were processed

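Poly-A selected, strand-specific libraries of the vagal region were made from total RNA, per the labels' protocols. The deposited values are TPM, 1 column per sample, each summing to 1000000. CASAVA 1.8.2, STAR and mm10 were used, per the submitters' processing notes. How reads were counted (program, strand, multiple mapping, gene lengths) is not given in the sources used here. Symbols, coordinates and exonic lengths came from GENCODE M21, which matched 55240 of 55421 identifiers and is on the same assembly as mm10.

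TPM multiplied by exonic length was a whole multiple of 1 step, within 0.001 read, for 98.7% to 98.9% of values up to 200 reads per library, which gave the depths and reads quoted. These cover counting precision only.

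Groups follow the genotype label, and replicates are numbered by the replicate label, 1 to 4 in each group. Genotypes were compared on log2(TPM + 1), a pseudocount of 1, by moderated two-sided tests in limma 3.58.1 under R 4.3.3, with a variance trend and no covariate. P-values of the 15717 genes averaging at least 1 TPM were adjusted together by Benjamini-Hochberg. The step was tested on simulated data. The members and lists were chosen with earlier results of these data known. Of the 32 members, those called, those without overlap and a fixed set of central genes are given library by library, and of the other lists called genes are named, with Mesp2 and Sox10, Hoxb5 and Rbpj-ps3 chosen after their values were seen. Tbxt was matched as T. Alternatives were other pseudocounts (0.1 and 5), filters (none, and a mean of 5 TPM), scalings, variance models, sample weights, a replicate block, sex as a covariate, the libraries low in Y-linked transcripts alone, and leaving out each library. Fold values are ratios of group mean TPM.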

Additional observations from a re-analysis of the deposited data

Results flagged for a closer look

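Dixon's test at the 95% level was applied to each of the 32 genes in each genotype, 64 sets of 4 values, and singled out a library in 4 sets, where chance alone does so in about 1 in 20. In all 4 the library was trex replicate 1. It held 27.9 TPM of Dll1, where the other trex libraries held 46.0 to 49.6 TPM. It held 21.0 TPM of Dll4, where they held 8.44 to 10.5 TPM, and 26.9 TPM of Jag2, where they held 10.9 to 13.2 TPM. It held 5.80 TPM of Psen2, where they held 3.93 to 4.22 TPM. The same library held 240.0 TPM of the summed neuron markers and 61.9 TPM of the summed otic and sensory epithelium markers, against 322 to 389.6 and 15.8 to 21.9 TPM in trex replicates 2 to 4. The part of these levels in the values above was not tested.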

How the results depend on the processing

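The 2 genes called higher and 4 called lower were called under 9 alternatives beyond single libraries: pseudocounts of 0.1 and 5, a mean of at least 5 TPM, the 3 rescalings, voom on recovered reads, and robust or trend-free variance estimation. A pseudocount of 5 and voom also called Dll3 (5 lower). Array weights called 7 higher and 6 lower, with 5524 genes over the whole table and 22 of the further genes. No filter gave 694 genes in all, 2 members lower and 3 further genes. The replicate block gave 687 genes, 1 member higher, 2 lower and 4 further genes. Same-numbered samples of both genotypes deviated together with correlations of 0.16, -0.02, -0.0045 and 0.25, so the numbers were not taken as pairs. Sex as a covariate gave 39 genes, 0 members in either direction and 1 further gene, and restricting the fit to the 6 libraries with little Y-linked RNA gave 8 genes and 0 members or further genes. Leaving out single libraries gave 201 to 2911 genes in all, 0 to 6 members higher, 0 to 5 lower and 1 to 10 further genes. The causes were not tested.

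Of all tested genes 777 were called higher and 592 lower, against 692 and 692 after median-of-ratios rescaling, 633 and 739 after quantile normalization, 633 and 670 without globin, mitochondrial and sex chromosome genes and 642 and 820 with voom. The share called higher was thus 56.8%, against 46.1% after quantile normalization and 43.9% with voom. Signs turned for genes near zero, none of them called. Dll4 was -0.0163 after median-of-ratios rescaling, -0.0570 after quantile normalization, -0.0216 without globin, mitochondrial and sex chromosome genes, -0.0260 with voom, -0.185 with array weights, and between -0.247 and 0.161 without single libraries. Hes3 was -0.0174 after quantile normalization, -0.0736 with sex as a covariate or in the 6 libraries, and between -0.0280 and 0.155 without single libraries. Rbpj was -0.0266 after quantile normalization and between -0.00631 and 0.101 without single libraries. Numbl was -0.00351 after median-of-ratios rescaling, -0.0443 after quantile normalization, -0.00850 without globin, mitochondrial and sex chromosome genes, -0.0152 with voom and between -0.0618 and 0.123 without single libraries. With array weights Rfng was 0.0335 and Maml1 was -0.0448. The depth limits Hes7 above all, with 3 to 18 reads per library.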

Other observations

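Among the bHLH relatives of the Hes genes, Bhlhe40 held 69.2, 3.99, 29.1 and 49.3 TPM in trex and 4.42, 4.69, 4.19 and 4.46 TPM in wt. Trex replicate 2 lay below all wt libraries and the other 3 trex libraries far above them, and the gene was not called (limma, adjusted p = 0.0762). Bhlhe41 averaged 10.3 ± 7.14 TPM in trex, against 1.93 ± 0.156 TPM in wt (adjusted p = 0.102). Both were chosen for mention after their values were seen.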
